A study of Mus musculus with 24 samples.

Results

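The imprinted genes of the postnatal mouse brain are genes read mainly from 1 of the 2 parental chromosomes. The list held 10 names, 4 from the Dlk1-Dio3 domain (Dlk1, Meg3, Rian and Mirg) and 6 from elsewhere (H19, Kcnq1ot1, Cdkn1c, Peg3, Peg10 and Snrpn). Their members were all non-control probes whose gene name on the array was one of these symbols. This gave 24 probes of 55681, for 9 of the 10 genes and of 36163 gene names on the array: 7 probes for H19, 3 each for Meg3 and Snrpn, 2 each for Mirg, Dlk1, Kcnq1ot1, Peg3 and Peg10, and 1 for Cdkn1c. Rian had no probe of that name. A further 5 probes named KCNQ1ot1 in capitals lay on the opposite strand to the Kcnq1ot1 probes and were not counted as members.

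RNA was taken from the hippocampus of male C57BL/6 mice at postnatal day 9 (P9), both sides of 1 animal per array, and 15 one-colour Agilent arrays measured it in 3 groups of 5. Con pups were untreated and stayed with the dam. MS2 and MS5 pups received morphine under the skin from P5, at 2 mg/kg and 5 mg/kg per dose, and were in addition taken from the dam and exposed to nitrogen in place of air, followed by oxygen. No genotype beyond the strain was given for any animal. There was no group with the stress alone and none with morphine alone, so in a comparison with Con the drug and the stress cannot be told apart, and only MS5 against MS2 compared pups that shared the stress and differed in dose. A set of 9 Affymetrix arrays, 3 per group, measured microRNAs (miRs), some of which are cut from the transcripts of the genes described here.

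Genomic imprinting is set in the germ line by DNA methylation of control regions, and it leaves the imprinted genes of a cluster active mainly on the chromosome from 1 parent. In the Dlk1-Dio3 domain the chromosome from the father makes the protein-coding RNA of Dlk1, and the chromosome from the mother makes long noncoding RNAs on 1 strand (Meg3, Rian and Mirg), which also carry small nucleolar RNAs and many miRs. In the brain these noncoding RNAs are abundant in neurons, whereas H19, which is strong in embryonic tissue, is mostly shut down after birth. Arrays measure the summed RNA of both chromosomes, so nothing here says from which parent an RNA came. In whole tissue, fewer cells of a type and less RNA per cell cannot be told apart.

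The arrays lay on 2 slides, each of which held arrays of all 3 groups. Slide 2 held Con 16 and 19, MS2 4 and 5, and MS5 9, 12 and 14, and slide 1 held the rest. Values by slide are therefore not separate from values without MS2 4, MS2 5, MS5 9, MS5 14 or Con 19. A few arrays stood apart from their groups before any comparison. Array MS2 4 had a mean of -2.04 over a list of hippocampal neuron markers, in log2 units from the Con mean, while the other 14 arrays lay between -0.30 and 0.18, and it was the highest of all in a hypothalamus and thalamus list (2.22). Arrays MS5 8, 12 and 14 were also raised in that second list (1.23, 0.97 and 1.16). Its genes did not rise together. On these 3 arrays Avp read 11.99, 12.47 and 10.79 (Con mean 7.31), while Lhx9 read 10.68, 10.34 and 10.34 (Con mean 10.53). On MS2 4 Lhx9 read 13.08 and Pmch 13.33 (Con mean 6.37). In MS5 against Con, 7 of the 10 genes were higher and 3 lower, with a median of 0.21. Arrays MS5 9 and 14 had the lowest values of choroid plexus markers (-2.21 and -3.11). Of 59 marker genes, 3 passed the threshold upwards in MS5 against Con (Avp, Oxt and Trh, hormone genes of the hypothalamus) and 9 downwards, all of the choroid plexus list (Kl, Folr1, Clic6, Aqp1, Cldn2, Otx2, Kcnj13, Slc4a5 and Calml4). Array MS5 9 showed Xist, the RNA of the inactive X chromosome, at 11.34 against at most 6.08 on the other 14 arrays, which goes against its male label. Array MS2 5 was dim, with a median spot signal of 58.2 where the others had 121 to 154.

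Probes for the noncoding RNAs are shown here because each reads a different stretch of a long transcript, and probes of 1 gene did not always move together. Each is a 60-base sequence written 5′ to 3′ in lower case, and positions are those of the array annotation on mouse build mm9.

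Meg3 A_51_P455997, chr12:110809678-110809737, forward strand: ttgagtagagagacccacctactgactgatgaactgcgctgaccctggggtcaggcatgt

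Meg3 A_52_P196568, chr12:110799558-110799617, forward strand: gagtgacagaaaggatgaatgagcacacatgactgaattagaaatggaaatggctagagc

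Mirg A_55_P2336173, chr12:110979653-110979712, forward strand: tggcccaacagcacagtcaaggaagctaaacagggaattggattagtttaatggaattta

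Mirg A_66_P121059, chr12:110987569-110987628, forward strand: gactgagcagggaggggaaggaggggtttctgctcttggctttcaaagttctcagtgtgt

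H19 A_55_P1961127, chr7:149761492-149761551, reverse strand: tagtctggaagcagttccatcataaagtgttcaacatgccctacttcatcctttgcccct

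H19 A_55_P1961125, chr7:149762417-149762476, reverse strand: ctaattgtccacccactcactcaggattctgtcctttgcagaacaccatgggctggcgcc

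Kcnq1ot1 A_55_P2408415, chr7:150440140-150440199, reverse strand: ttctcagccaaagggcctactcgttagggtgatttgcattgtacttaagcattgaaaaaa

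Kcnq1ot1 A_55_P2196922, chr7:150434020-150434079, reverse strand: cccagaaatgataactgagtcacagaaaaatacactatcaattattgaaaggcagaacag

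Of the 24 probes, 23 were well above background on all 15 arrays. The exception was the Peg10 probe A_55_P2029763, above background on 14, and no member spot was saturated. Values below are the deposited log2 levels, and changes are differences of group means on that scale. The level of a probe depends on its sequence, so levels were not ranked between probes. Where a gene had several probes, the one with the highest mean level is called its main probe.

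No member passed the threshold of >1.5 fold with an unadjusted p under 0.05 in any of the 3 comparisons. Over all probes, 0.0233% passed it in MS2 against Con, 0.228% in MS5 against Con and 0.129% in MS5 against MS2. Of the 24 probes, 22 were higher in MS2 than in Con (49% of all probes), 16 were higher in MS5 than in Con (50.2% of all probes) and 11 were higher in MS5 than in MS2 (50.7% of all probes). The first of these counts was 14 without MS2 4 and 15 without Con 19. By slide, the median over the 24 probes was 0.04 on slide 1 and 0.28 on slide 2 in MS2, and 0.04 and 0.18 in MS5. Over both slides the median change was 0.11 in MS2 and 0.13 in MS5 against Con, and -0.01 between the doses, where the median over all probes was within 0.0017 of 0 in each comparison. Without MS2 4 the median in MS2 was 0.02 and that between the doses 0.09, so the median in MS2 rested on this array. Probes of 1 gene share a transcript, so these 24 are not independent. After Benjamini-Hochberg adjustment over all 55681 probes by limma, 0 probes of any gene had an adjusted p under 0.05, and the smallest adjusted p was 0.97, 0.635 and 1 in the 3 comparisons.

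At an unadjusted p under 0.05 in limma, 1 member probe passed in MS2 against Con (Snrpn A_55_P1990116; 4.17% of all probes passed), 2 passed in MS5 against Con (both Kcnq1ot1 probes; 3.9% of all probes) and 0 passed in MS5 against MS2 (3.97% of all probes). Without MS2 4, 0 members passed in MS2 (4% of all probes) and 5 in MS5 (5.92% of all probes). In MS5 a smaller residual spread then also let 2 Snrpn probes and the Mirg main probe pass at the same changes. Without the dim array MS2 5, 4 passed in MS2 (6.58% of all probes), among them both Peg3 probes and a Meg3 probe. The 5 arrays of 1 group lay wholly on 1 side of the other group for 0 members in MS2 against Con (0.702% of all probes), for 1 in MS5 against Con (0.828%) and for 0 between the doses (0.621%). That 1 probe was again Snrpn A_55_P1990116. The precision set by 5 arrays per group differed widely between members: the 95% interval of a change reached 0.12 to each side for Kcnq1ot1 and 0.92 for Dlk1.

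**Figure D1:**
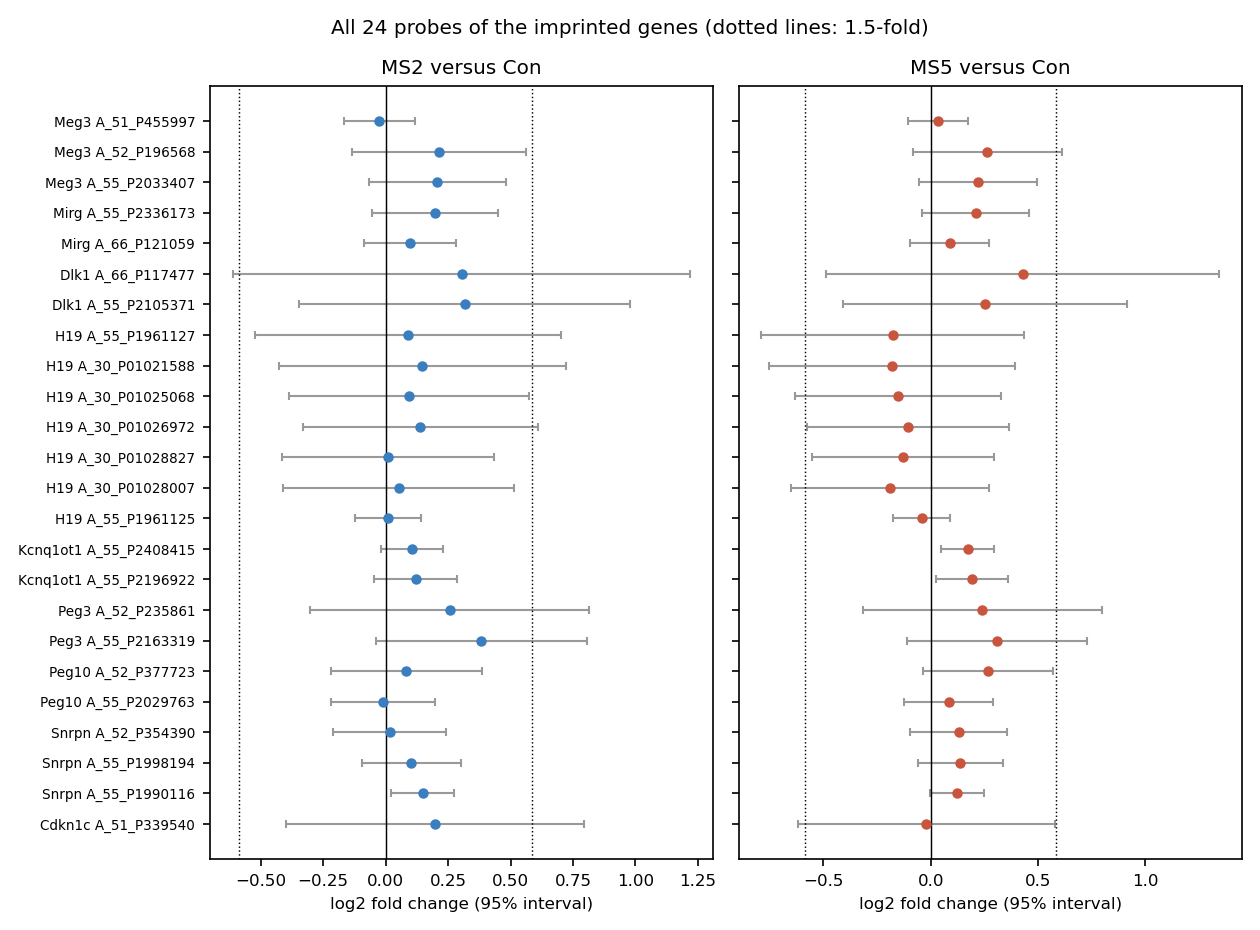
Log2 fold change of each of the 24 probes against Con, in MS2 on the left and MS5 on the right, as points with 95% confidence intervals from limma; dotted lines mark a 1.5-fold change and the horizontal scales differ. Most points lie slightly right of 0, the intervals of Dlk1, H19, Peg3 and Cdkn1c are wide, and those that leave 0 belong to 1 Snrpn probe in MS2 and both Kcnq1ot1 probes in MS5.

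Meg3, the first noncoding RNA of the maternal chromosome of the Dlk1-Dio3 domain, overlapped between the groups at its main probe. This probe, A_51_P455997, gave 16.70, 16.54, 16.67, 16.63 and 16.63 in Con arrays 15 to 19. It gave 16.55, 16.65, 16.72, 16.45 and 16.68 in MS2 arrays 1, 3, 4, 5 and 7. It gave 16.70, 16.52, 16.72, 16.56 and 16.85 in MS5 arrays 8, 9, 12, 13 and 14. The highest and the lowest arrays, MS5 14 and MS2 5, were both from treated pups. The change was -0.03 in MS2 (SE 0.07, 95% interval -0.17 to 0.12) and 0.03 in MS5 (-0.11 to 0.17), with adjusted p of 0.985 and 1 in limma. The other Meg3 probes, which lie closer to the start of the gene, had changes of 0.21 and 0.21 in MS2 and of 0.26 and 0.22 in MS5, and the exact permutation p values of these 4 changes were between 0.0794 and 0.302. Without MS2 4 both changes in MS2 were smaller, at 0.08 for A_52_P196568 and 0.12 for the other, and without MS2 5 that of A_52_P196568 was 0.35 (unadjusted p = 0.0253 in limma). Without MS5 14 the change of the other in MS5 was 0.14. Correlations among the 3 Meg3 probes over the arrays ran from 0.547 to 0.741.

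Mirg, a noncoding RNA at the far end of the same strand, is named for the miRs it contains. Its main probe A_55_P2336173 gave 12.93, 12.81, 13.01, 12.83 and 12.70 in Con. The MS2 arrays gave 12.98, 12.90, 13.44, 12.82 and 13.12. The MS5 arrays gave 13.10, 13.02, 13.01, 12.80 and 13.40. Arrays MS2 4 and MS5 14 were the highest, and 4 of 5 MS5 arrays lay above all Con arrays. The change was 0.20 in MS2 (SE 0.12, 95% interval -0.05 to 0.45, exact permutation p = 0.143) and 0.21 in MS5 (-0.04 to 0.46, exact permutation p = 0.0873). Without MS2 4 the change in MS2 was 0.10, and without MS5 14 the change in MS5 was 0.13. By slide, the change in MS5 was 0.03 on slide 1 and 0.39 on slide 2. The second Mirg probe moved with the first over the arrays (r = 0.895) with smaller changes of 0.10 and 0.09, which were 0.03 without MS2 4 and 0.02 without MS5 14.

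Dlk1, a membrane protein related to the Notch ligands that is made from the paternal chromosome of the domain, varied more over the arrays than any other member, by 2.69 on the log2 scale. Its main probe A_66_P117477 gave 8.55, 9.15, 9.20, 8.75 and 9.15 in Con. In MS2 it read 9.35, 9.11, 11.00, 8.30 and 8.56. In MS5 it read 9.18, 8.79, 9.61, 8.90 and 10.47. MS2 4 and MS5 14 stood above every other array, and the remaining arrays of all 3 groups overlapped. The change was 0.30 in MS2 (SE 0.43, 95% interval -0.61 to 1.22) and 0.43 in MS5 (-0.49 to 1.35), with exact permutation p of 0.714 and 0.238. Without MS2 4 the change in MS2 was -0.13, and without MS5 14 the change in MS5 was 0.16. The change in MS5 was 0.21 on slide 1 and 0.47 on slide 2. With both MS2 4 and MS5 9 left out, MS5 exceeded MS2 by 0.71 (unadjusted p = 0.0385 in limma), which is the only setting of those tried in which a member passed the threshold. The second Dlk1 probe followed the first closely (r = 0.979).

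The 2 highest Dlk1 arrays were among those raised in the hypothalamus and thalamus list. Over the 15 arrays, with each value taken from its group mean, Dlk1 and the mean of that list had Pearson's r = 0.812 (permutation p = 0.00076, adjusted 0.0232 over 81 relations of member genes with marker lists) and Spearman's rho = 0.707 (permutation p = 0.00435, adjusted 0.108). Without the 2 arrays farthest from the median of Dlk1 the correlation was 0.501, and it was 0.488 on slide 1 and 0.961 on slide 2, so the relation rested largely on those arrays. Avp, Oxt and Trh of that list were high on both MS2 4 and MS5 14, but Hcrt, Pmch and Lhx9 on MS2 4 only. The part of these genes, or of the tissue they mark, in the Dlk1 values was not tested.

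**Figure D2:**
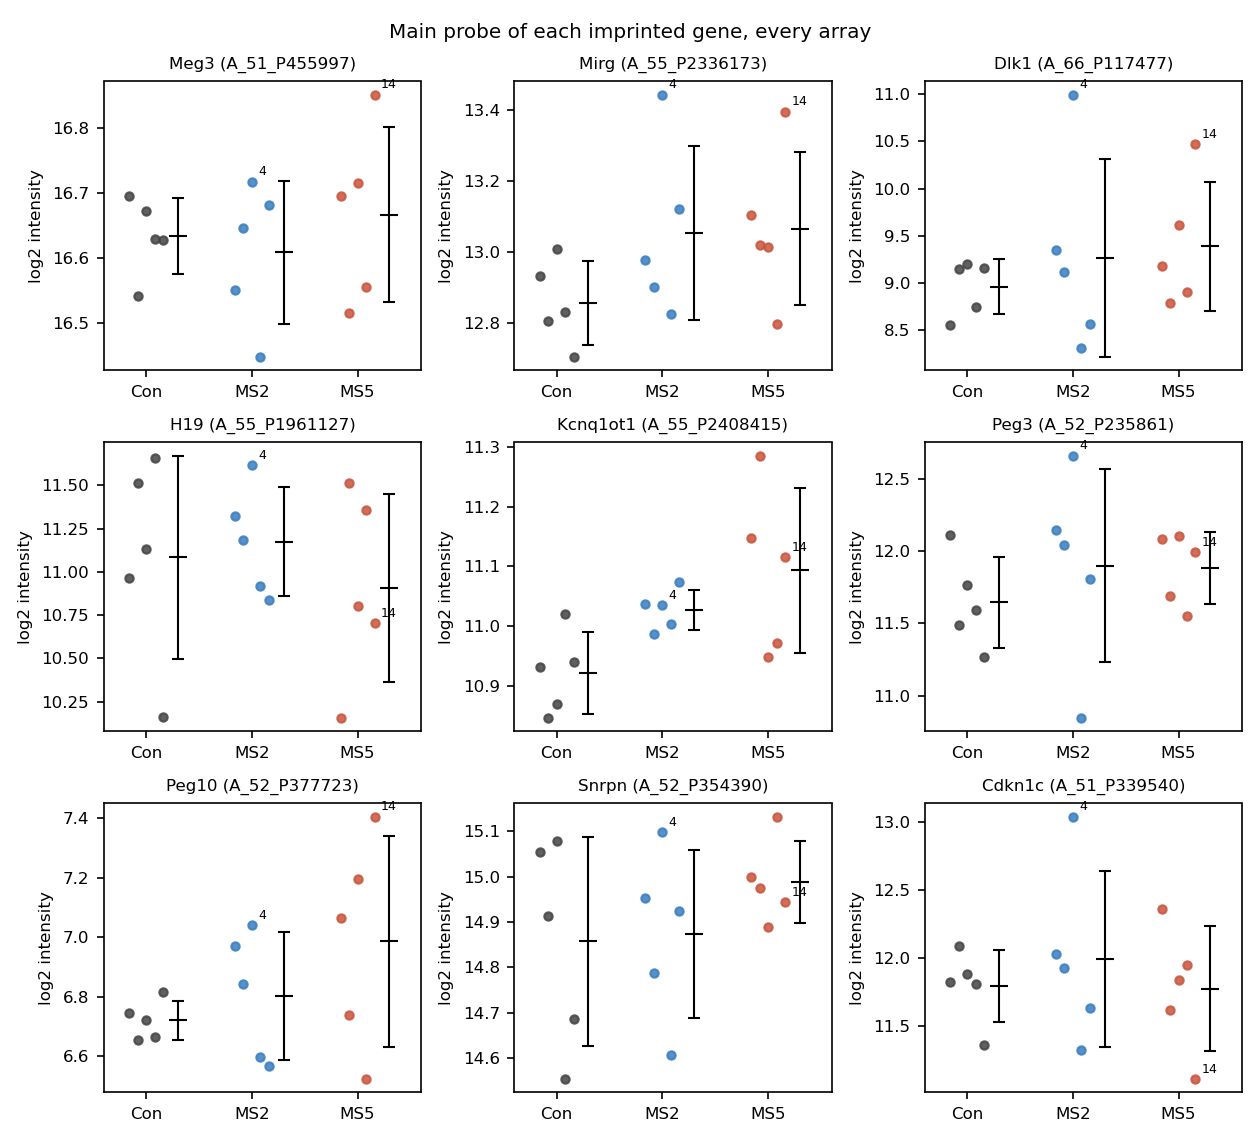
Log2 intensity of the main probe of each of the 9 genes, with 1 point per array (MS2 4 and MS5 14 numbered) and the mean and SD of the 5 arrays of each group beside them; the vertical scale differs between panels. The groups overlap in every panel, and single arrays such as MS2 4 for Dlk1 and Cdkn1c set much of the spread.

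No probe carried the name Rian, but the array holds many probes between Meg3 and Mirg that have other names or only transcript identifiers. All probes of the 289.1 kb from the first Dlk1 probe to the last Mirg probe (chr12:110698502-110987628, mm9) were therefore read by strand, a comparison added after the values were seen. The maternal noncoding RNAs run along the forward strand. From Meg3 to Mirg this strand held 48 probes, and all 48 were well above background on all 15 arrays. The reverse strand held 27 probes over the same stretch, of which 16 were above background on all arrays. In the part strictly between the 2 genes, where RefSeq places Rian, the counts were 30 of 30 forward probes and 11 of 22 reverse probes.

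Changes along the forward strand were small, and most probes did not pass even an unadjusted test. Of its 48 probes, 43 were higher in MS2 and 45 in MS5 than in Con, with medians of 0.18 (1.13-fold) and 0.16 (1.12-fold), and 0 passed the 1.5-fold threshold. The other 5 and 3 probes were lower, with changes down to -0.13 in MS2 and -0.27 in MS5. At an unadjusted p under 0.05 in limma, 10 passed in MS2 (20.8%, against 4.17% of all probes), 8 in MS5 (16.7%, against 3.9%) and 0 between the doses, and all of these were higher than Con. The smallest adjusted p among them was 0.97. By slide, the median in MS2 was 0.08 on slide 1 and 0.31 on slide 2, and that in MS5 was 0.02 and 0.28. On the reverse strand 20 of 27 probes were higher in MS2 and 18 in MS5, with medians of 0.05 and 0.02. These medians include probes not above background on all arrays. At the same cut 4 reverse probes passed in MS2 and 0 in MS5. All 4 were among the 5 reverse probes within the Mirg stretch, each above background on all 15 arrays. The median of those 5 was 0.25 in MS2 and 0.07 in MS5, against 0.18 and 0.17 for the 15 forward probes there. Probes of either strand overlap or share transcripts and are not replicates, so the arrays are the unit.

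By array, the mean of the 48 forward probes, taken from the Con mean, was 0.11, -0.01, 0.05, 0.02 and -0.16 in Con. Means in MS2 were 0.07, 0.15, 0.46, -0.08 and 0.17. Means in MS5 were 0.17, 0.11, 0.08, -0.03 and 0.38. MS2 4 and MS5 14 were highest here too, Con 19 was lowest, and the groups overlapped. Without MS2 4 the median change in MS2 fell to 0.08 and 5 probes passed (against 4% of all probes). Without MS5 14 the median in MS5 was 0.10 and 0 probes passed (against 2.7%). Without Con 19, 5 passed in MS2 (against 2.93%) and 0 in MS5 (against 3.55%). Without the dim array MS2 5 there were 19 in MS2 (against 6.58%). Con 19 thus weighed on both counts as a control shared by the 2 comparisons. The 46 forward probes other than those of Mirg all correlated positively with the Mirg main probe over the 15 arrays, with a median r of 0.811 and a range of 0.029 to 0.926, as a description of probes read on the same arrays.

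**Figure D3:**
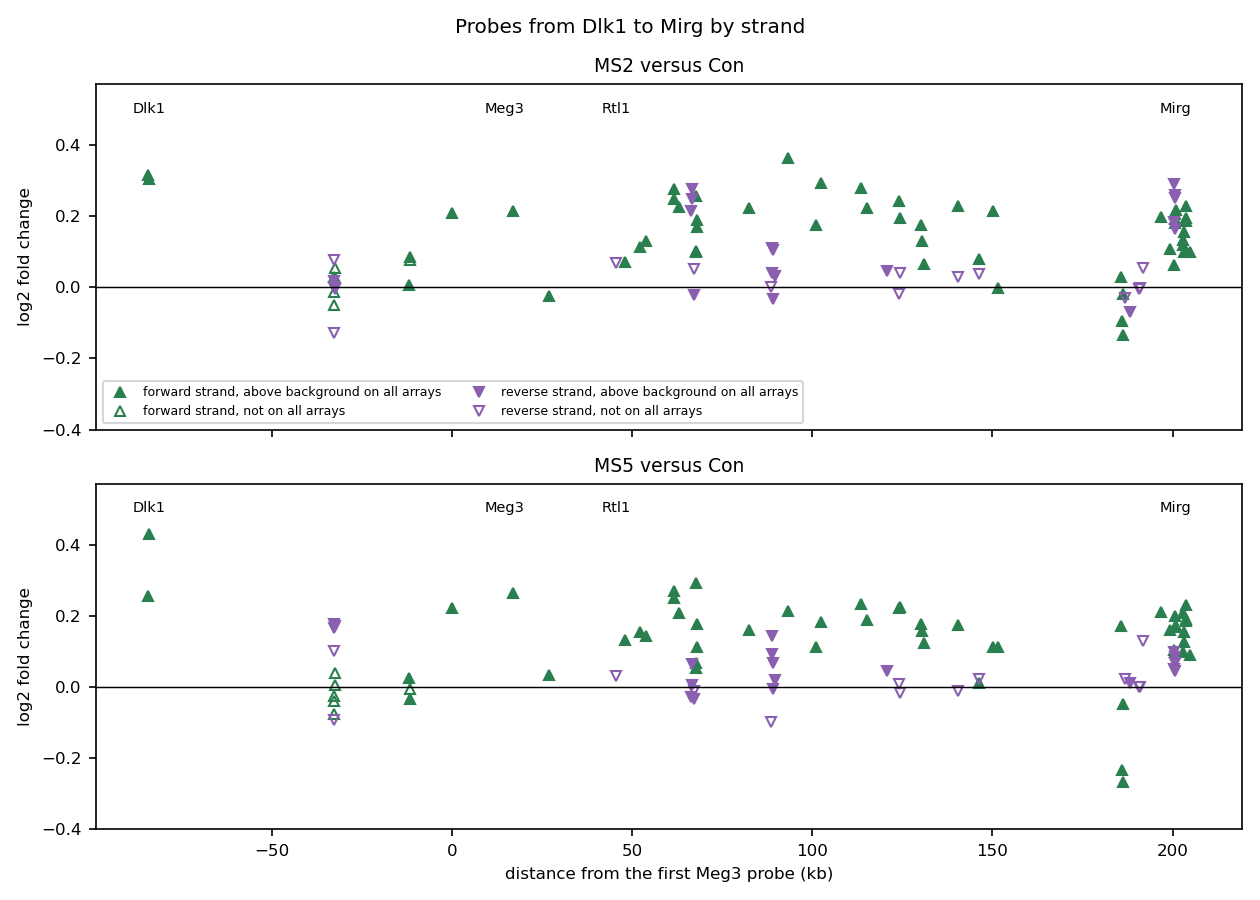
Log2 fold change against Con in MS2 (top) and MS5 (bottom) for every probe from Dlk1 to Mirg, by distance from the first Meg3 probe in kb; upward triangles are forward-strand and downward triangles reverse-strand probes, filled where well above background on all 15 arrays. Forward-strand probes from Meg3 onward lie mostly above 0, with medians of 0.18 and 0.16. Reverse-strand probes have medians of 0.05 and 0.02 over that stretch, and of 0.25 and 0.07 for the 5 within Mirg.

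The miR arrays gave a second readout of these transcripts. By RefSeq position (build GRCm38.p6), 15 hairpins lay within Meg3, Rian, Mirg or H19, and they had 33 probe sets of 1412 on the miR arrays, 20 of them for mature miRs. The matches rest on miR names, and some names on this array give no arm. Both arms of 4 hairpins are printed because they show what is cut from Meg3 (Mir770), Mirg (Mir409 and Mir369) and H19 (Mir675). They were read from RefSeq with the seed, bases 2 to 8, in capitals.

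mmu-miR-770-5p: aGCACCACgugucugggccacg

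mmu-miR-770-3p: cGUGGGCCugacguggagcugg

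mmu-miR-409-5p: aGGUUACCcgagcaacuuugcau

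mmu-miR-409-3p: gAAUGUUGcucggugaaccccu

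mmu-miR-369-5p: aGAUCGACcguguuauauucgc

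mmu-miR-369-3p: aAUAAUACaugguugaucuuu

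mmu-miR-675-5p: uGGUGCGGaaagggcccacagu

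mmu-miR-675-3p: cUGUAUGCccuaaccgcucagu

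Of the 33 probe sets, 2 passed >1.5 fold with an unadjusted p under 0.05 in MS2 against Con (2.97% of all 1412), 0 in MS5 against Con (0.992%) and 0 in MS5 against MS2 (0.425%). Both lie in Mirg. The passenger strand miR-154-star gave 5.301, 5.273 and 5.136 in Con, 5.98, 5.77 and 6.15 in MS2 and 5.08, 5.63 and 5.77 in MS5. Every MS2 array lay above every Con array and above every MS5 array, the highest of which came within 0.01 of the lowest in MS2, and MS5 arrays lay on both sides of Con. The change in MS2 was 0.73 (SE 0.17), with an adjusted p of 0.0934 in limma and an exact permutation p of 0.1, the smallest that 3 arrays against 3 allow. miR-410 gave 7.54, 7.57 and 7.22 in Con, 7.76, 8.43 and 8.15 in MS2 and 7.78, 7.96 and 8.05 in MS5. Both treated groups lay above Con, by 0.67 in MS2 (adjusted p = 0.101 in limma) and 0.49 in MS5 (adjusted p = 0.467). Without array MS2 4, 5 of the 33 passed in MS2 against Con and 3 in MS5 against MS2.

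Mature miRs of 1 transcript did not share a direction in MS2. Within Mirg, miR-154 and miR-369-5p were 0.41 and 0.54 above Con in MS2 (adjusted p of 0.112 and 0.189 in limma), while miR-541 was 0.37 below it (adjusted p = 0.311). miR-370, cut from Rian, gave 10.836, 10.758 and 10.699 in Con, 9.98, 10.58 and 10.07 in MS2 and 10.47, 10.36 and 10.76 in MS5. All MS2 arrays were below all Con arrays, by 0.55 on average (SE 0.16), but the adjusted p in limma was 0.149. miR-770-3p, cut from Meg3, gave 10.96, 10.57 and 10.65 in Con, 9.80, 11.15 and 9.81 in MS2 and 10.66, 10.37 and 11.03 in MS5. Array MS2 4 was the highest of the 9, and the other 2 MS2 arrays were the lowest, which gave an SD of 0.78 in MS2 against 0.21 in Con. The median over the 33 probe sets was -0.05 in MS2 and 0.05 in MS5 against Con. It includes the hairpin probe sets, whose means were only 3.86 to 4.81. Some mature sets, such as miR-453 (3.92) and miR-369-3p (4.03), were as low, so the median describes dim and bright probe sets together.

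H19, the maternally expressed noncoding RNA that hosts miR-675, differed mostly between animals. Its main probe A_55_P1961127 gave 10.96, 11.51, 11.13, 11.66 and 10.16 in Con. MS2 arrays read 11.32, 11.19, 11.61, 10.92 and 10.84. MS5 arrays read 10.15, 11.51, 10.80, 11.36 and 10.71. The lowest arrays, Con 19 and MS5 8, belong to different groups, and the 3 groups overlapped. The change was 0.09 in MS2 (SE 0.29, 95% interval -0.52 to 0.70) and -0.18 in MS5 (-0.79 to 0.43), with adjusted p of 0.99 and 1 in limma. Without Con 19 the changes were -0.14 and -0.41. Without MS5 8 the change in MS5 was 0.01, without MS5 9 it was -0.33, and without MS2 4 the change in MS2 was -0.02, so single arrays set the direction. The change in MS5 was -0.49 on slide 1 and 0.17 on slide 2. Both arms of miR-675 read near 4 on all 9 miR arrays, with group means from 3.82 to 4.06.

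Of the 7 H19 probes, 6 gave almost the same pattern over the arrays, with correlations from 0.963 to 0.994 in 15 pairs. The other, A_55_P1961125, whose sequence is printed above with that of the main probe, correlated at -0.366 to -0.266 with them. It was well above background everywhere but dim, with group means of 6.40 to 6.45. For scale, Zfp264, an imprinted gene above background on 0 arrays, had group means of 5.85 to 5.88. The level of A_55_P1961125 varied by only 0.31 over the 15 arrays, against 1.001 to 1.502 for the other 6.

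The spread in H19 went with markers of the meninges, the membranes that cover the brain. Over 15 arrays, with values taken from their group means, H19 and the mean of 8 meningeal genes had r = 0.853 (permutation p = 1e-05, the smallest that the resamples can give, adjusted 0.00081) and rho = 0.846 (permutation p = 0.00012, adjusted 0.00972). The correlation was 0.679 without the 2 arrays farthest from the median of H19, 0.91 on slide 1 and 0.898 on slide 2. It was the only one of the 81 relations with marker lists that passed by both measures. Array Con 19 was the lowest of all in the meningeal list, 0.80 below the Con mean, and MS5 8 was next (-0.58). A list of 4 microglial genes ran the other way, with r = -0.77 (permutation p = 0.00086, adjusted 0.0232) but rho = -0.668 (permutation p = 0.00791, adjusted 0.108). That correlation was -0.687 without the 2 arrays farthest from the median of H19, -0.504 on slide 1 and -0.91 on slide 2. All 8 meningeal genes were above background on all arrays, and 0 of the 8 passed the threshold in any comparison. Of the 4 microglial genes 0 passed it. The part of the meninges or of microglia in the H19 values was not tested.

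**Figure D4:**
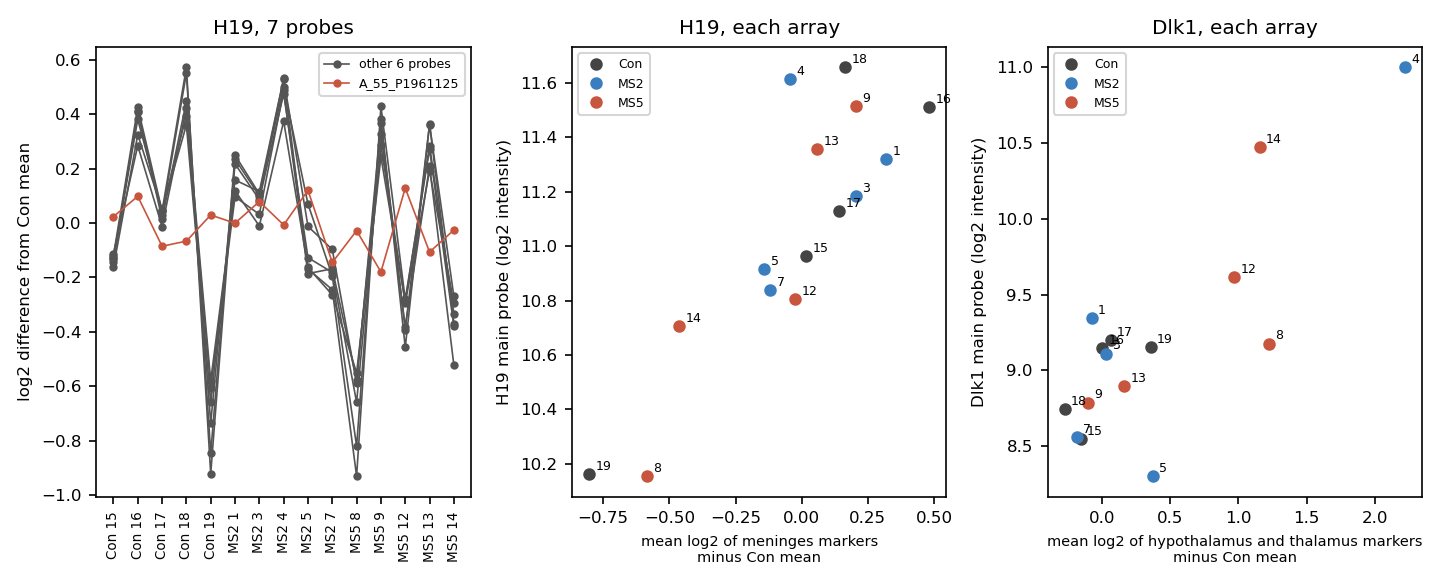
Left, the 7 H19 probes on each array as log2 differences from their Con mean; middle and right, the main probes of H19 and Dlk1 (log2 intensity) against the mean of meningeal and of hypothalamus and thalamus markers (log2, minus the Con mean), 1 numbered point per array coloured by group. A_55_P1961125 does not follow the other 6 probes, H19 follows the meningeal list in all groups (r = 0.853 on group-centred values), and the highest Dlk1 points are MS2 4 and MS5 14.

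Kcnq1ot1 and Cdkn1c belong to 1 imprinted cluster on chromosome 7, in which the long noncoding RNA Kcnq1ot1, made from the paternal chromosome, silences neighbouring genes on that chromosome. Its main probe A_55_P2408415 gave 10.93, 10.84, 10.87, 11.02 and 10.94 in Con. MS2 pups had 11.04, 10.99, 11.03, 11.00 and 11.07. MS5 pups had 11.15, 11.29, 10.95, 10.97 and 11.12. Only Con 18 reached into the range of MS2, and MS5 12 and 13 into that of Con. The change was 0.17 in MS5 (1.13-fold, SE 0.06, 95% interval 0.05 to 0.30), with an exact permutation p of 0.0397, an unadjusted p of 0.00981 and an adjusted p of 1 in limma. In MS2 it was 0.11 (-0.02 to 0.23), with an exact permutation p of 0.0238 and an unadjusted p of 0.0895 in limma. Without MS5 9 the spread left was smaller and that p was 0.0443 at the same change.

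The second Kcnq1ot1 probe, A_55_P2196922, which lies further along the same long transcript (from base 48373, against 42253 for the main probe), gave changes of 0.19 in MS5 (unadjusted p = 0.0257 in limma, exact permutation p = 0.0635) and 0.12 in MS2 (exact permutation p = 0.127). Both probes were 0.07 higher in MS5 than in MS2, a difference with an interval on both sides of 0. For the main probe the change in MS5 lay between 0.12 and 0.21 when each array was left out in turn, was 0.12 on slide 1 and 0.22 on slide 2, and was lowest without MS5 9, the array with Xist. Its unadjusted p in limma was 0.135 on slide 1 and 0.076 on slide 2, and it stayed under 0.05 in all 15 fits without 1 array. That of the second probe did so in 11, and without MS5 9 its change was 0.13 (unadjusted p = 0.0767 in limma). The call was also lost without Con 17, 18 or 19, with unadjusted p up to 0.0652. The marker list that moved most closely with Kcnq1ot1 was that of endothelial cells and pericytes, inversely (r = -0.697, permutation p = 0.00335, adjusted 0.0678; rho = -0.764, permutation p = 0.00152, adjusted 0.0616; r = -0.782 without the 2 arrays farthest from the median, -0.73 on slide 1 and -0.701 on slide 2). Of the 6 genes of that list 0 passed the threshold, but 2 were lower in MS5 than in Con at an unadjusted p under 0.05 in limma, the cut at which Kcnq1ot1 was higher. They were the endothelial cadherin gene Cdh5 (-0.24, unadjusted p = 0.0169, exact permutation p = 0.0317) and the pericyte receptor gene Pdgfrb (-0.21, unadjusted p = 0.0154, exact permutation p = 0.00794). The list as a whole did not share this direction: 3 of its 6 genes were higher and 3 lower in MS5 than in Con, with a median of -0.02. The mean level of the list, from the Con mean, ran from -0.05 to 0.06 in Con, from -0.07 to -0.01 in MS2 and from -0.10 to -0.02 in MS5. The part of these cells in the result was not tested.

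Cdkn1c, the inhibitor of cyclin-dependent kinases that Kcnq1ot1 silences on the paternal chromosome, varied within groups more than between them. Its probe A_51_P339540 gave 11.82, 12.09, 11.88, 11.81 and 11.36 in Con. The MS2 arrays gave 12.02, 11.93, 13.04, 11.32 and 11.63. The MS5 arrays gave 12.36, 11.61, 11.84, 11.95 and 11.10. MS2 4 was again the highest, and the groups overlapped. The change was 0.20 in MS2 (SE 0.28, 95% interval -0.40 to 0.79), -0.02 in MS5 (-0.62 to 0.58) and -0.22 between the doses, with exact permutation p from 0.587 to 0.984. Without MS2 4 the change in MS2 was -0.07. On slide 1 MS5 lay 0.32 above Con and on slide 2 it lay below it, with a change of -0.21, so the slides differed in direction. Over the arrays Kcnq1ot1 and Cdkn1c were not among the pairs that passed in the comparison of member genes described below. Of 8 other genes of the cluster on the wider list below, 4 were higher and 4 lower in MS5 than in Con, with 1, the potassium channel gene Kcnq1, 0.22 lower at an unadjusted p under 0.05 in limma.

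Snrpn, which codes for a splicing protein of neurons and heads the paternally expressed transcripts of the region deleted in Prader-Willi syndrome, had 3 probes with unequal changes. Its main probe A_52_P354390 gave 15.05, 14.91, 15.08, 14.55 and 14.69 in Con. In MS2 it read 14.95, 14.79, 15.10, 14.61 and 14.92. In MS5 it read 15.00, 14.98, 14.89, 15.13 and 14.94. The MS5 arrays lay within a narrow band inside the range of Con apart from MS5 13, and the change was 0.02 in MS2 and 0.13 in MS5 (SE 0.11), with exact permutation p of 0.913 and 0.31. The probe A_55_P1998194 changed by 0.10 and 0.14, and by 0.01 in MS2 without MS2 4.

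The Snrpn probe closest to the 3′ end, A_55_P1990116, was the most even within Con. It gave 11.92, 11.88, 11.92, 11.93 and 11.89 there. Levels in MS2 were 11.98, 11.91, 12.28, 12.05 and 12.07. Levels in MS5 were 11.93, 12.13, 11.98, 12.06 and 12.06. All MS5 arrays lay above all Con arrays, although MS5 8 did so by less than 0.01. The change was 0.12 in MS5 (1.09-fold, SE 0.06), where the exact permutation p was 0.00794, the smallest that 5 arrays against 5 allow, and the unadjusted p in limma was 0.054. Without MS2 4 that p was 0.0136 at the same change, and without MS5 9 it was 0.132. In MS2 it was 0.15 (unadjusted p = 0.0234 in limma, exact permutation p = 0.0317, adjusted p = 0.97), and MS2 4 was the highest array. Without it the change was 0.09 and the call was lost (unadjusted p = 0.0627 in limma).

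The reverse strand from Ube3a to Snrpn, which holds the long transcript downstream of Snrpn, had 25 probes with medians of 0.19 in MS2 and 0.16 in MS5, of which 5 and 1 had an unadjusted p under 0.05 in limma (20% and 4%, against 4.17% and 3.9% of all probes). By array, the mean of these probes from the Con mean was 0.04, 0.08, 0.61, -0.06 and 0.19 in MS2 and 0.23, 0.08, 0.07, 0.04 and 0.34 in MS5. Con arrays lay between -0.11 and 0.11. MS2 4 and MS5 14 were the highest. Without MS2 4 the median in MS2 fell to 0.07 with 4 probes past that p (against 4% of all probes). Without MS5 14 the median in MS5 was 0.09 with 0 probes (against 2.7%). The number of such probes in MS2 was lowest, at 2, without Con 16, 18 or 19 (against 2.93% to 3.77%). It was highest, at 10, without MS2 5 (against 6.58%), and in MS5 it was 6 without MS2 4 (against 5.92%). On the forward strand of that stretch 37 probes had medians of 0.08 and 0.04. Of these, 35 were higher in MS2 and 25 in MS5 than in Con, against 19 and 23 of the 25 reverse probes. At the same p, 2 forward probes passed in MS2 (5.41%) and 0 in MS5. Between the doses 4 forward probes passed, all lower in MS5 (10.8%, against 3.97% of all probes), and 0 reverse probes. Without MS2 4 the forward median in MS2 was 0.05, beside 0.07 on the reverse strand.

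Peg3, a zinc finger protein of the paternal chromosome with a role in maternal care, was somewhat higher in both treated groups. Its main probe A_52_P235861 gave 12.11, 11.49, 11.76, 11.59 and 11.27 in Con. MS2 arrays read 12.15, 12.04, 12.66, 10.84 and 11.81. MS5 arrays read 12.08, 11.69, 12.11, 11.55 and 11.99. The dim array MS2 5 was the lowest of all 15, MS2 4 the highest, and the groups overlapped. The change was 0.26 in MS2 (SE 0.26, 95% interval -0.30 to 0.81) and 0.24 in MS5 (-0.32 to 0.80), with exact permutation p of 0.468 and 0.254. Without MS2 5 the change in MS2 was 0.52 (unadjusted p = 0.0156 in limma), and without MS2 4 it was 0.07, so each of these arrays moved the value by more than 1.5 times. In MS5 the change was within 0.01 of 0 on slide 1 and 0.55 on slide 2. The second Peg3 probe changed by 0.38 in MS2 and 0.31 in MS5, and its change in MS2 was 0.21 without MS2 4 and 0.50 without MS2 5 (unadjusted p = 0.0216 in limma).

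Peg10, a gene of retrotransposon origin that is needed for the placenta, varied more between arrays in the treated groups than in Con. This difference in spread was not tested. Its main probe A_52_P377723 gave 6.75, 6.65, 6.72, 6.66 and 6.82 in Con. MS2 pups had 6.97, 6.84, 7.04, 6.60 and 6.56. MS5 pups had 7.07, 6.74, 7.20, 6.52 and 7.41. The spread was larger in both treated groups, with SDs of 0.21 and 0.36 against 0.07 in Con, and values went both above and below those of Con. The change was 0.08 in MS2 and 0.27 in MS5 (SE 0.14, 95% interval -0.04 to 0.57, exact permutation p = 0.143), with 0.08 on slide 1 and 0.38 on slide 2. In MS5 it was 0.16 without MS5 14, 0.33 without MS5 9 (unadjusted p = 0.0435 in limma) and 0.38 without MS5 13 (unadjusted p = 0.00839), and in MS2 it was 0.02 without MS2 4. The probe is dim, and its change in MS5 was 0.43 with normexp offset 0 and 0.50 with 75th percentile scaling, neither past an unadjusted p of 0.05. The second Peg10 probe, A_55_P2029763, changed by -0.01 in MS2 and 0.08 in MS5.

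Member genes moved together within groups in a few pairs. Of 36 pairs of main probes, 8 had a Benjamini-Hochberg adjusted permutation p under 0.05 for Pearson's r, and 2 for both r and Spearman's rho. Meg3 and Mirg, from 1 strand of 1 domain, had r = 0.769 (permutation p = 7e-04, adjusted 0.0144) and rho = 0.764 (permutation p = 0.00138, adjusted 0.0248), with 0.74 on slide 1, 0.818 on slide 2 and 0.8 without the 2 arrays farthest from the median. Dlk1 and Peg10, from different chromosomes, had r = 0.762 (permutation p = 8e-04, adjusted 0.0144) and rho = 0.8 (permutation p = 0.00063, adjusted 0.0227), with 0.646 and 0.877 on the slides and 0.709 without the 2 arrays. Both of these pairs also lay above 0.6 when MS2 4 and MS5 14 were left out together (0.606 and 0.737). Like Dlk1, Peg10 and Mirg correlated with the hypothalamus and thalamus list, with r of 0.631 and 0.636 (permutation p of 0.0125 and 0.0117, both adjusted 0.162). For Peg10 this was 0.836 on slide 1 and 0.929 on slide 2. The part of that list in these pairs was not tested. Mirg and Dlk1, which share a domain but not a parent of origin, had r = 0.745 but rho = 0.421 (permutation p of 0.00197 and 0.118), and r fell to 0.25 without the 2 farthest arrays.

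**Figure D5:**
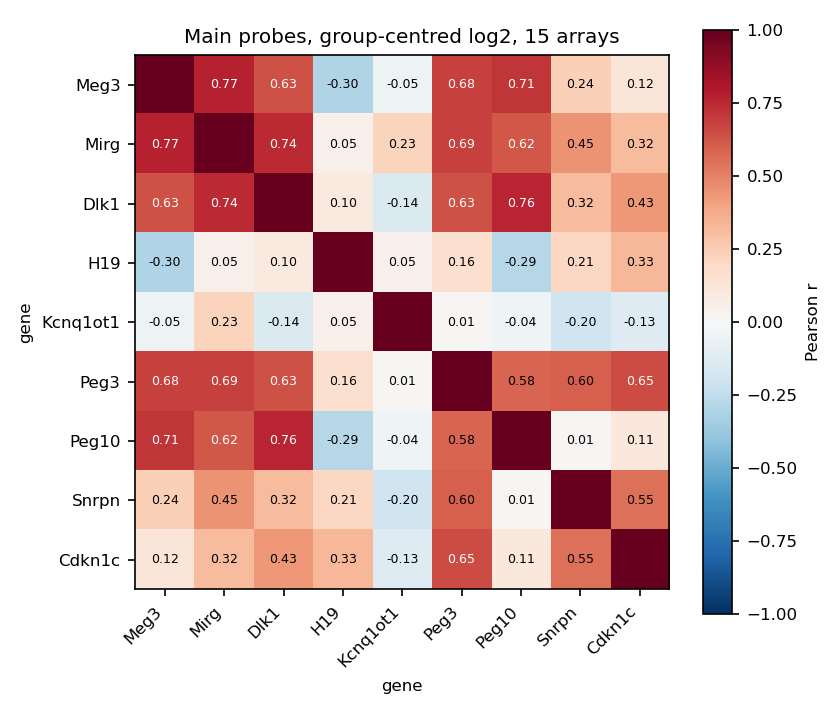
Pearson's r over 15 arrays between the main probes of the 9 genes, from log2 values centred on group means. Meg3, Mirg, Dlk1, Peg3 and Peg10 form the block of high values, and H19 and Kcnq1ot1 have no pair above 0.333 with the other genes.

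Genes outside the imprinted set were often closer to a member than any other member was. Among 55680 other probes, ranked by correlation over the 15 arrays, the closest gene with a curated RefSeq record was Adamts6 for Meg3 (r = 0.924), Onecut3 for Dlk1 (0.958), Apod for H19 (0.919), Pigc for Kcnq1ot1 (0.89), Tmem63b for Peg3 (0.958), Stx5a for Peg10 (0.913), Cttn for Snrpn (0.914) and Lef1 for Cdkn1c (0.964). For Mirg, Synj2bp and Zdbf2 were equally close (0.92), and Zdbf2 is itself an imprinted gene. The nearest member ranked 134th for Peg10 (Dlk1), 159th for Meg3 (Mirg) and 12780th for Kcnq1ot1 (Mirg). With so many probes and 15 arrays, high values arise easily, and the rankings are given as a description.

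Of a wider list of 54 imprinted genes beyond the 10, 53 had a probe (Snurf did not), and 0 passed the 1.5-fold threshold in any comparison. In MS2 against Con 33 were higher and 20 lower, with a median of 0.01, and 0 had an unadjusted p under 0.05. In MS5 against Con 32 were higher and 21 lower, with a median of 0.01. There 1 was higher and 6 were lower at an unadjusted p under 0.05 in limma (13.2%, against 3.9% of all probes), all with an adjusted p of 1, and 0 passed in MS5 against MS2. The higher gene was Zdbf2 (0.35, exact permutation p = 0.0238), which lost the call without Con 18, MS5 8 or MS5 14. The lower genes were Ins2, an insulin gene beside H19 (-0.52, exact permutation p = 0.0397), the lactonase gene Pon3 beside Peg10 (-0.45, exact permutation p = 0.00794), Mest (-0.29, lost without Con 16, MS5 9 or MS5 14), Kcnq1 (-0.22), Peg12 (-0.16) and Igf2r, a receptor that clears the growth factor Igf2 (-0.16). For Pon3 the 5 MS5 arrays gave 8.92, 8.42, 8.99, 8.89 and 8.45, and the Con arrays 9.02, 9.32, 9.34, 9.16 and 9.06. The lowest, MS5 9 and MS5 14, were also the lowest in choroid plexus markers, whose part in these values was not tested.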

How the data were processed

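RNA of 15 hippocampi was measured on Agilent arrays (5 each in Con, MS2 and MS5) and that of 9 on Affymetrix miR arrays (3 each). The authors background-corrected the scanner intensities (normexp, offset 50), quantile-normalized them and deposited log2 values for the mRNA arrays, and deposited RMA values for the miR arrays, read here as log2. Control probes were dropped, which left 55681. Reprocessing the deposited intensities gave back the deposited log2 values. Each fit covered all probes and all 3 groups (limma 3.58.1 in R 4.3.3, lmFit and eBayes, Benjamini-Hochberg adjustment), with the threshold of >1.5 fold and unadjusted p under 0.05. Exact two-sided permutation tests used all 252 assignments of 5 against 5. Correlation p values came from 100000 permutations. The fit was tested on simulated data. Intensities carry no read depth, and the number of arrays limits the precision. The study states that treated pups went back to a home cage shared with control littermates, and that experiments were repeated to fill the groups. The labels give no litter or round, so neither could enter the fits, and p values measure the spread between these animals.

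The members, gene lists and marker lists were chosen with earlier results of these data known. Every member probe was described, with full statistics for each main probe. The likest gene was the probe of another gene with a curated RefSeq identifier and the highest correlation. The strand comparison, the counts at an unadjusted p under 0.05 and the settings without pairs of arrays were added after the values were seen. Alternatives were other background corrections, 75th percentile scaling, a filter on dim probes, array weights, slide as a block, each slide alone, 2-group fits and leaving out each array. Sequences and gene positions from RefSeq were on GRCm38.p6, probe positions on mm9. The sequence of 1 Meg3 probe is not reported here.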

Additional observations from a re-analysis of the deposited data

Results flagged for a closer look

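Of 72 sets of 5 values (24 probes in 3 groups), 1 held an array far from the others. For the Mirg probe A_66_P121059 in MS5, array 14 read 13.26 and the other 4 read 12.90 to 12.96. The gap to the nearest was 0.833 of the whole range, above the limit of 0.71 for 5 arrays. Chance alone sets apart about 1 in 20 such groups.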

How the results depend on the processing

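No paired analysis was possible because the replicate numbers name single animals and no number occurs in more than 1 group. No member had an adjusted p under 0.05 under any alternative, and none passed >1.5 fold except Dlk1 in MS5 against MS2 without arrays MS2 4 and MS5 9 (count of 1, change 0.71). Of the changes of main probes under other settings, 702 of 729 lay within 1 SE of the main value, 26 moved further, and 52 had the opposite sign, 8 of these by over 1 SE.

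The counts of members at an unadjusted p under 0.05 (1, 2 and 0) were the least stable. The share of all probes that passed in the same fit is given in brackets. In MS2 the count was 0 with normexp offset 0 (4.13%), with 75th percentile scaling (3.31%) and on slide 1 (3.09%). It was also 0 without MS2 4 and MS5 9 (3.88%) and without MS2 4 and MS2 5 (6.3%). A fit of the 2 groups compared gave 2 (3.74%). In MS5 it was 1 with 75th percentile scaling (3.29%), 4 with array weights (6.42%), 1 on slide 1 (7.79%) and 0 on slide 2 (3.43%). It was 4 in a fit of the 2 groups (5.76%) and 6 without MS2 4 and MS2 5 (6.96%). Between the doses it was 1 without MS2 4 and MS5 9 (5.84%). Leaving out each array in turn gave 0 (without MS2 4, 4%) to 4 (without MS2 5, 6.58%), 1 to 5 (without MS2 4, 5.92%) and 0 to 1.

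For the forward strand from Meg3 to Mirg (10, 8 and 0), shares of all probes are again in brackets. The count in MS2 was 6 with 75th percentile scaling (3.31%), 2 on slide 1 (3.09%) and 5 on slide 2 (5.26%). It was 5 without MS2 4 and MS5 9 (3.88%). In MS5 it was 2 with that scaling (3.29%), 14 with array weights (6.42%), 2 on slide 1 (7.79%) and 5 on slide 2 (3.43%). It was 15 without MS2 4 and MS2 5 (6.96%). Between the doses it was 1 with array weights (9.69%), on slide 1 (8.3%) and without MS2 4 and MS2 5 (8.12%). Leaving out each array gave 5 to 19 (without MS2 5, 6.58%), 0 to 13 (without MS5 13, 5.29%) and 0 to 1. The median of the forward strand in MS5 was 0.0188 on slide 1, and the median over members in MS2 was 0.28 on slide 2. Leaving out each array gave medians over members of 0.02 (without MS2 4) to 0.16, 0.09 to 0.15 and -0.07 to 0.09. The smaller slides hold 2 or 3 arrays of a group.

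The 2 pairs of genes that passed by both correlation measures became 0 with values not centred on group means, 0 without the 2 arrays farthest on the x axis, 1 on slide 1 and 0 on slide 2, and the 8 that passed by r became 1 without those 2 arrays, 3 on slide 1 and 1 on slide 2. Hosted miRs past the threshold numbered 2 to 5 in MS2, 0 to 0 in MS5 and 0 to 3 between the doses when each array was left out. The share of all miR probe sets in those fits was not computed. The cause of these differences was not tested beyond the smaller number of arrays.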
